A study of Mus musculus with 12 samples.

Results

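The 10 genes described here belong to the circadian clock, the transcriptional feedback loop that times daily rhythms in most mammalian cells: Arntl (also called Bmal1), Clock, Per1, Per2, Per3, Nr1d1, Nr1d2, Bhlhe40, Dbp and Tef. Members were taken as every probe set whose single gene symbol in the array annotation was one of these names, which gave 18 probe sets for 10 genes, of 20393 probe sets for 12394 genes on the arrays. Of the 18, 16 probe sets were tested, since on 3 or more arrays they were brighter than 25% of all probe sets, and at least 1 probe set of each of the 10 genes was among them. The 2 that were not tested are both Per3 probe sets, 1421086_at and 1460662_at, which exceeded every absent-control probe set on no array.

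The study measured 12 Affymetrix arrays of spinal cord RNA from wild-type female C57BL/6 mice aged 10 weeks, with 3 biological replicates in each of 4 groups. The groups are total RNA from injured cord, total RNA from sham cord, polysome-bound RNA from injured cord and polysome-bound RNA from sham cord. Injured mice had 80% of the cord cut after a laminectomy, whereas sham mice, called naive in the sample titles, had the laminectomy only, so both kinds of mice were operated on. In both, 2.5 cm of cord around the site was removed 9 hours later and ground in a Dounce homogenizer; a small aliquot gave total RNA, and the rest was spun through a sucrose gradient to collect RNA on polysomes, the mRNAs that several ribosomes are translating. The labelling reaction took 5 µg of RNA for the total arrays and 3 µg for the polysome arrays. The hour of day of the operation and of the dissection and the light schedule, which set the phase of clock genes in a living mouse, are not given in the sources used here. The 8 neuron, 7 astrocyte and 5 oligodendrocyte markers tested were all above every absent-control probe set in sham total RNA.

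In the clock, the proteins BMAL1 (from Arntl) and CLOCK bind E-box sequences as a pair and switch on Per, Cry, Nr1d and Dbp genes. PER proteins, with CRY partners, then inhibit that pair, while REV-ERB proteins (from Nr1d1 and Nr1d2) repress Arntl through ROR elements. DBP and TEF carry the rhythm to output genes by binding D-box sequences. Per1 is in addition an acute response gene that glucocorticoids and cAMP signalling induce outside its daily rhythm.

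As deposited, the brightest probe sets of 4 genes were called in the same direction in both fractions (Per1, Tef, Nr1d1 and Dbp, below), although for Per1 and Nr1d1 the sizes differed. After quantile normalization of the 12 arrays, the difference in size was called for Per1 and Tef and not for Nr1d1. The start-site windows of these 4 genes are shown. Each runs from 250 bases before to 50 bases after a RefSeq transcript start on GRCm38.p6, 5′ to 3′ on the strand of the gene, with the first window listed where a gene has several starts. The windows are at chr11:69098699-69098998 (Per1, plus strand), chr15:81802423-81802722 (Tef, plus strand), chr11:98775328-98775627 (Nr1d1, minus strand) and chr7:45704997-45705296 (Dbp, plus strand). The Per1 window lies inside the annotated span of the gene (chr11:69095108-69109965), at a start downstream of the first, and the Dbp window overlaps the 5′ end of its gene (chr7:45705100-45710203). Capitals mark the motifs found by letter search on both strands.
Per1: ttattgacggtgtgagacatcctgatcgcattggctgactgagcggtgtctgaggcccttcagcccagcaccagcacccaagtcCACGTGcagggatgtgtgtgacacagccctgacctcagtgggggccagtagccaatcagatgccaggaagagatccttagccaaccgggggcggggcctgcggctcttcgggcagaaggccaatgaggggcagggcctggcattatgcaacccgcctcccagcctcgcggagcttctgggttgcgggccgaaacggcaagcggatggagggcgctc
Tef: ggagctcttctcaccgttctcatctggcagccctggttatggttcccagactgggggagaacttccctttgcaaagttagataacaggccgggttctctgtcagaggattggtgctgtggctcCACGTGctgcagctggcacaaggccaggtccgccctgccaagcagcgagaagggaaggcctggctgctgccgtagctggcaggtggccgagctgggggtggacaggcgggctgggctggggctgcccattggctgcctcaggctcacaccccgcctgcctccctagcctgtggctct
Nr1d1: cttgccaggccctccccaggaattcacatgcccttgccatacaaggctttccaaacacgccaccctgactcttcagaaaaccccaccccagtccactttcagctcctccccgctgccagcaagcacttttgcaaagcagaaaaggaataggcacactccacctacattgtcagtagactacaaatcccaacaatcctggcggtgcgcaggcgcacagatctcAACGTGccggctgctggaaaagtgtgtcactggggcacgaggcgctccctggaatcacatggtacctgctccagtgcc
Dbp: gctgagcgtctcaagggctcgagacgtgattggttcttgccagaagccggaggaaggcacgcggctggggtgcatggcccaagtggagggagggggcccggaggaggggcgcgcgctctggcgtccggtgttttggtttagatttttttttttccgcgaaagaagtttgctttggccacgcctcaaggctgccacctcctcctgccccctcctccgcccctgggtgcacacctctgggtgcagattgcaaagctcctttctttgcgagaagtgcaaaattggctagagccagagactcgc
With the start base as 0, the capitals in Per1 are an E-box (CACGTG) at -166 to -161, those in Tef an E-box at -127 to -122, and those in Nr1d1 an E-prime box (CACGTT, here on the opposite strand) at -28 to -23. None of the letters searched lies in the Dbp window. Beside the E-box and the E-prime box, the search covered the D-box (written TTATGTAA or TTACGTAA), a short ROR element with the letters TAGGTCA, and the cAMP response element, TGACGTCA; no motif contains another. Among all 32851 windows of 300 bases in the RefSeq table, 7.15% held the E-box, 4.68% the E-prime box, 1.06% a D-box, 2.61% the short ROR element and 1.79% the cAMP response element. The table held 13 windows for 8 of the 10 genes, and Per2 and Bhlhe40 are named only. Besides the printed windows, the second Tef window held an E-box at -138 to -133, the Per3 window D-boxes at -205 to -198 and -158 to -151, and 1 of 2 Arntl windows the short ROR element at 30 to 36. The second Per1 window, the 3 Clock windows and the Nr1d2 window held none of them.

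Values are log2 expression values as deposited, and changes are log2 differences given with their standard error (SE) as fitted by limma to groups of 3 arrays. A difference was called where limma's p-value, after Benjamini-Hochberg adjustment over the 16566 tested probe sets, was under 0.05. The levels of different probe sets are not compared, since each has its own response. In whole cord, fewer cells of a type and less RNA per cell cannot be told apart. In total RNA, 59.8% of all tested probe sets were called after injury (37.3% higher, 22.4% lower). Of the 16 clock probe sets, 8 were higher, 7 lower and 1 was not called, with a median of 0.04 against 0.08 over all probe sets. Counted by the brightest probe set of each gene, 7 of 10 genes were higher (Arntl, Clock, Per1, Per2, Nr1d2, Bhlhe40, Tef) and 3 lower (Per3, Nr1d1, Dbp). On polysomes, 38.8% of all probe sets were called (11.8% higher, 27% lower), and of the 16 clock probe sets 2 were higher, 4 lower and 10 not called. With so many calls among all probe sets, the number of clock calls is no result about the clock genes, and the sizes and directions of single genes are given below.

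**Figure D1:**
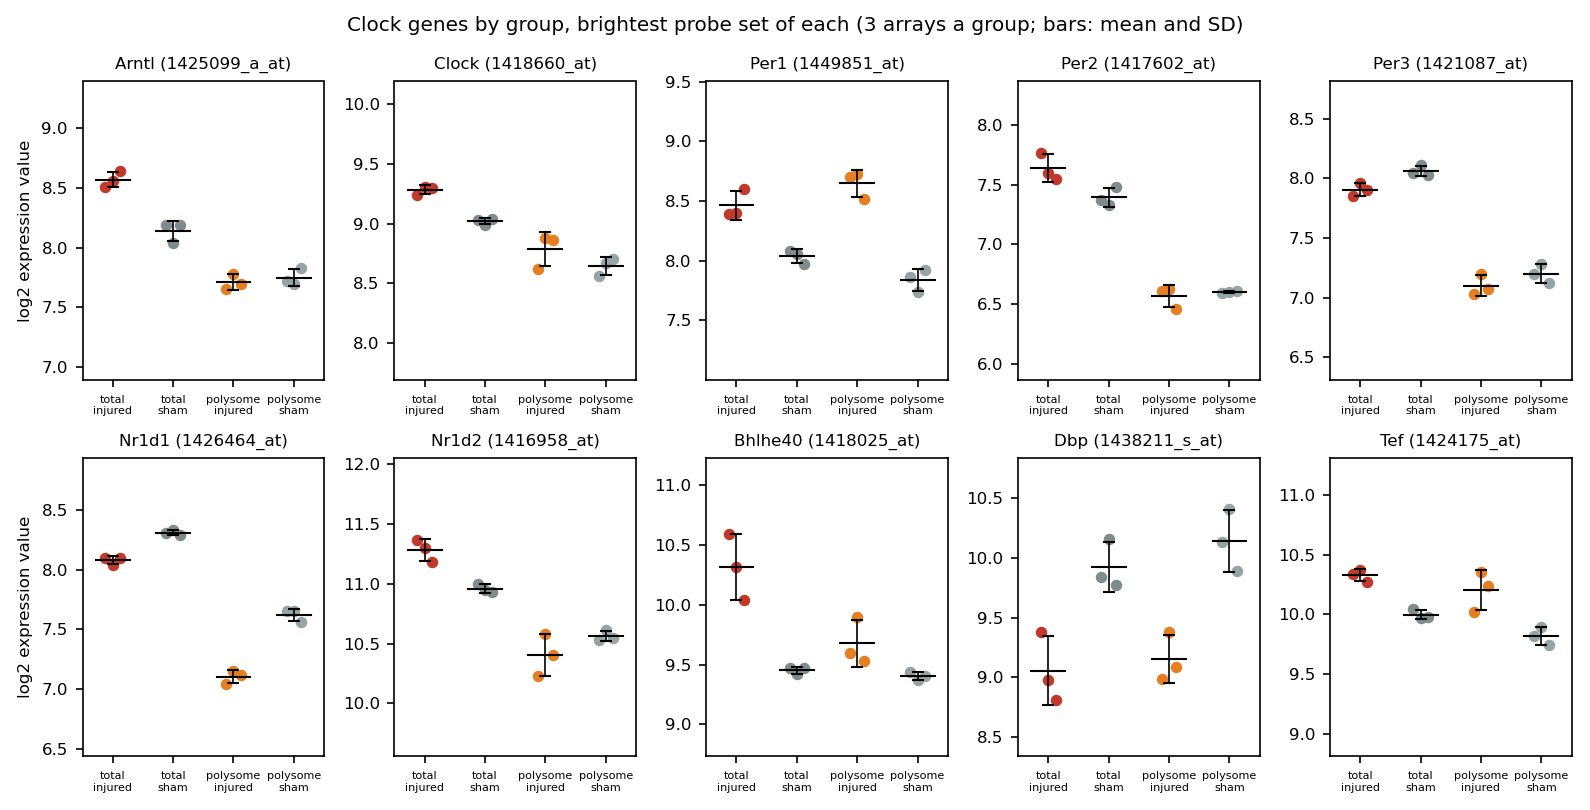
Log2 expression value (vertical axis, a span of 2.5 in every panel) of the brightest probe set of each of the 10 clock genes, with 1 point per array and the mean and SD of 3 arrays per group. Per1 and Tef sit higher in the injured than in the sham arrays in both fractions and Nr1d1 and Dbp lower, whereas Arntl is higher in injured cord only in total RNA by its ranges.

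All 16 tested clock probe sets had injured and sham arrays that did not overlap in total RNA, as did 72.5% of all probe sets. The activators rose in total RNA. Arntl, which encodes BMAL1, read 8.51, 8.56 and 8.64 in injured total RNA, against 8.19, 8.04 and 8.19 in sham total RNA. The 3 injured arrays lay above the 3 sham arrays, a change of 0.43 (SE 0.06; 1.35-fold; adjusted p = 9.5e-05). On polysomes Arntl read 7.65, 7.78 and 7.70 in injured cord, against 7.72, 7.70 and 7.83 in sham cord. Here the groups overlapped, and the difference of -0.04 was not called (adjusted p = 0.69; 95% interval -0.17 to 0.10). Clock, the partner of BMAL1, has 2 probe sets. Probe set 1418660_at read 9.24, 9.31 and 9.30 in injured total RNA, against 9.03, 8.99 and 9.04 in sham total RNA, a rise of 0.27 (SE 0.07; adjusted p = 0.0064). Probe set 1418659_at averaged 9.23 ± 0.08 in injured total RNA and 8.90 ± 0.09 in sham total RNA (SD, n = 3 each), a rise of 0.34 (SE 0.08; adjusted p = 0.0026). After quantile normalization of the 12 arrays, the rise of Clock 1418660_at was no longer called (0.08; adjusted p = 0.31), and after quantile normalization within a fraction neither Clock probe set was called (0.07 and 0.14). On polysomes neither Clock probe set was called as deposited, with differences of 0.14 for 1418660_at (adjusted p = 0.14) and -0.10 for 1418659_at (adjusted p = 0.34). The value of 1418660_at did pass the threshold, at 0.21 to 0.23, after either quantile normalization or centring of the arrays, and at 0.23 without injured polysome replicate 1.

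Among the Per genes, whose proteins form the repressing arm, Per1 stood out by rising in both fractions and more on polysomes. Per1 read 8.39, 8.40 and 8.60 in injured total RNA, against 8.08, 8.06 and 7.97 in sham total RNA. On polysomes it read 8.70, 8.73 and 8.52 in injured cord, against 7.86, 7.74 and 7.92 in sham cord. The injured arrays were above all sham arrays in both fractions. The rise was 0.43 in total RNA (SE 0.08; 1.34-fold; adjusted p = 0.00036) and 0.81 on polysomes (SE 0.08; 1.75-fold; adjusted p = 4.9e-06). Its polysome change exceeded its total change by 0.38 (SE 0.11; adjusted p = 0.0091). Without injured polysome replicates 1 and 2 together, the 2 arrays with the lowest array weights (0.22 and 0.41), that excess was 0.26 and not called (adjusted p = 0.079).

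As deposited, Per2 and Per3 changed by less than Per1 in both fractions. Set against probe sets of like level, as described below, the total RNA rises of Per2 1417602_at and Per1 were 0.33 and 0.30. Per2 probe set 1417602_at read 7.77, 7.60 and 7.55 in injured total RNA, against 7.37, 7.33 and 7.48 in sham total RNA, a rise of 0.24 (SE 0.06; adjusted p = 0.0053). On polysomes it averaged 6.56 ± 0.09 in injured cord and 6.60 ± 0.01 in sham cord (SD, n = 3 each), and the difference of -0.03 was not called. These polysome values lay 0.06 to 0.19 above the highest absent control of their array, so a change there could hardly be measured, and the same limit holds for the Per2 interaction. The other Per2 probe set, 1417603_at, lay among the absent controls on 11 of 12 arrays and was called in neither fraction. Per3 probe set 1421087_at read 7.85, 7.96 and 7.90 in injured total RNA, against 8.04, 8.11 and 8.03 in sham total RNA. The arrays did not overlap, and the fall of 0.15 on the log2 scale passed the threshold narrowly (SE 0.06; adjusted p = 0.041). That call was lost without any 1 of the 3 sham total arrays, injured total replicate 1 or 3, or sham polysome replicate 1, with values of -0.13 to -0.17. On polysomes the Per3 difference was -0.10 and not called (adjusted p = 0.23; 95% interval -0.22 to 0.03).

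Nr1d1, which encodes REV-ERB alpha, was lower after injury in both fractions. It read 8.10, 8.04 and 8.10 in injured total RNA, against 8.31, 8.33 and 8.29 in sham total RNA. On polysomes it read 7.04, 7.15 and 7.12 in injured cord, against 7.65, 7.65 and 7.56 in sham cord. In each fraction the injured arrays were all below the sham arrays, with an SD of 0.02 to 0.06 in the 4 groups. The fall was 0.23 on the log2 scale in total RNA (SE 0.05; 0.853-fold; adjusted p = 0.0019). On polysomes Nr1d1 fell by 0.52 on the log2 scale (SE 0.05; 0.699-fold; adjusted p = 7.9e-06). The probe sets of Nr1d2, which encodes REV-ERB beta, disagreed in total RNA. The bright one, 1416958_at, read 11.37, 11.30 and 11.18 in injured total RNA, against 11.00, 10.95 and 10.93 in sham total RNA, a rise of 0.32 (SE 0.08; adjusted p = 0.0037). The dim one, 1416959_at, read 6.84, 6.84 and 6.95 in injured total RNA, against 7.44, 7.45 and 7.42 in sham total RNA, and fell by 0.56 on the log2 scale (SE 0.05; adjusted p = 2.5e-06). The bright probe set was above every absent control on all 12 arrays. The dim one was above them on 1 injured and 3 sham total arrays and on no polysome array, so no change is given for it on polysomes, although its call there (adjusted p = 0.0088) is among the 4 lower ones. After quantile normalization the rise of 1416958_at was 0.04 and not called (adjusted p = 0.62), whereas the fall of 1416959_at was called under every alternative that kept this probe set. On polysomes 1416958_at differed by -0.16 (adjusted p = 0.13; 95% interval -0.33 to 0.01), and by -0.25, which was called, without injured polysome replicate 2.

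Bhlhe40, a basic helix-loop-helix repressor (DEC1) that binds E-boxes in competition with the activators, had the largest rise in total RNA among the 16 tested clock probe sets. It read 10.59, 10.32 and 10.04 in injured total RNA, against 9.47, 9.42 and 9.47 in sham total RNA. The injured arrays (SD 0.28) lay above the closely grouped sham arrays (SD 0.03), with a rise of 0.86 (SE 0.12; 1.82-fold; adjusted p = 4.2e-05). On polysomes it read 9.60, 9.90 and 9.53 in injured cord, against 9.44, 9.37 and 9.40 in sham cord. These arrays did not overlap, as for 46.1% of all probe sets in this fraction, but the difference of 0.28 missed the threshold (SE 0.12; adjusted p = 0.075; 95% interval 0.03 to 0.53). It was called at 0.33 to 0.36 after either quantile normalization or centring, at 0.28 without injured total replicate 1 or 3, and at 0.35 without injured polysome replicate 3.

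Dbp, the D-box activator known for a very strong daily rhythm, had the largest fall in either fraction among the tested clock probe sets, and its 2 probe sets agreed. Probe set 1438211_s_at read 9.38, 8.98 and 8.81 in injured total RNA, against 9.84, 10.16 and 9.77 in sham total RNA. On polysomes it read 8.99, 9.38 and 9.09 in injured cord, against 10.13, 10.41 and 9.89 in sham cord. No injured array reached a sham array of its fraction. The fall was 0.87 on the log2 scale in total RNA (SE 0.16; 0.549-fold; adjusted p = 0.00043) and 0.99 on polysomes (SE 0.16; 0.503-fold; adjusted p = 0.00026). Probe set 1418174_at read 8.33, 7.99 and 7.90 in injured total RNA, against 8.79, 8.96 and 8.66 in sham total RNA. It fell by 0.73 on the log2 scale there (SE 0.13; adjusted p = 0.00044) and by 0.99 on polysomes (SE 0.13; adjusted p = 7e-05). Dbp also varied among sham replicates, with an SD of 0.15 to 0.26 for its 2 probe sets in the 2 sham groups, against at most 0.09 for the brightest probe set of every other clock gene. In sham cord the order of the replicates was the same in both fractions and both probe sets, with replicate 2 highest and replicate 3 lowest. In injured cord replicate 1 was highest in total RNA and lowest on polysomes for both probe sets.

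Tef, a relative of Dbp in the same family, had 1 bright probe set that rose and 2 dim ones that fell in total RNA. The bright one, 1424175_at, read 10.34, 10.37 and 10.27 in injured total RNA, against 10.04, 9.97 and 9.98 in sham total RNA. On polysomes it read 10.02, 10.35 and 10.24 in injured cord, against 9.82, 9.89 and 9.74 in sham cord. The rise was 0.33 in total RNA (SE 0.08; adjusted p = 0.0027) and 0.38 on polysomes (SE 0.08; adjusted p = 0.0016), with no overlap in either fraction. The rise in total RNA was 0.05 and not called after quantile normalization of the 12 arrays (adjusted p = 0.48). The rise on polysomes kept its call under every alternative run. In total RNA Tef 1450184_s_at averaged 6.88 in injured and 7.41 in sham cord, and 1438033_at averaged 6.74 in injured and 6.99 in sham cord. They fell by 0.53 and 0.26 on the log2 scale (adjusted p = 2.7e-06 and 0.0036). On polysomes neither was called. Probe set 1438033_at was above every absent control on 1 of 12 arrays, so its values lie almost wholly among those controls, and its fall was -0.11 and not called after quantile normalization of the 12 arrays. Probe set 1450184_s_at was above them on 2 injured and 3 sham total arrays. Probe set 1450184_s_at ends in _s_at, as does Dbp 1438211_s_at, a mark of probes that can match more than 1 transcript.

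**Figure D2:**
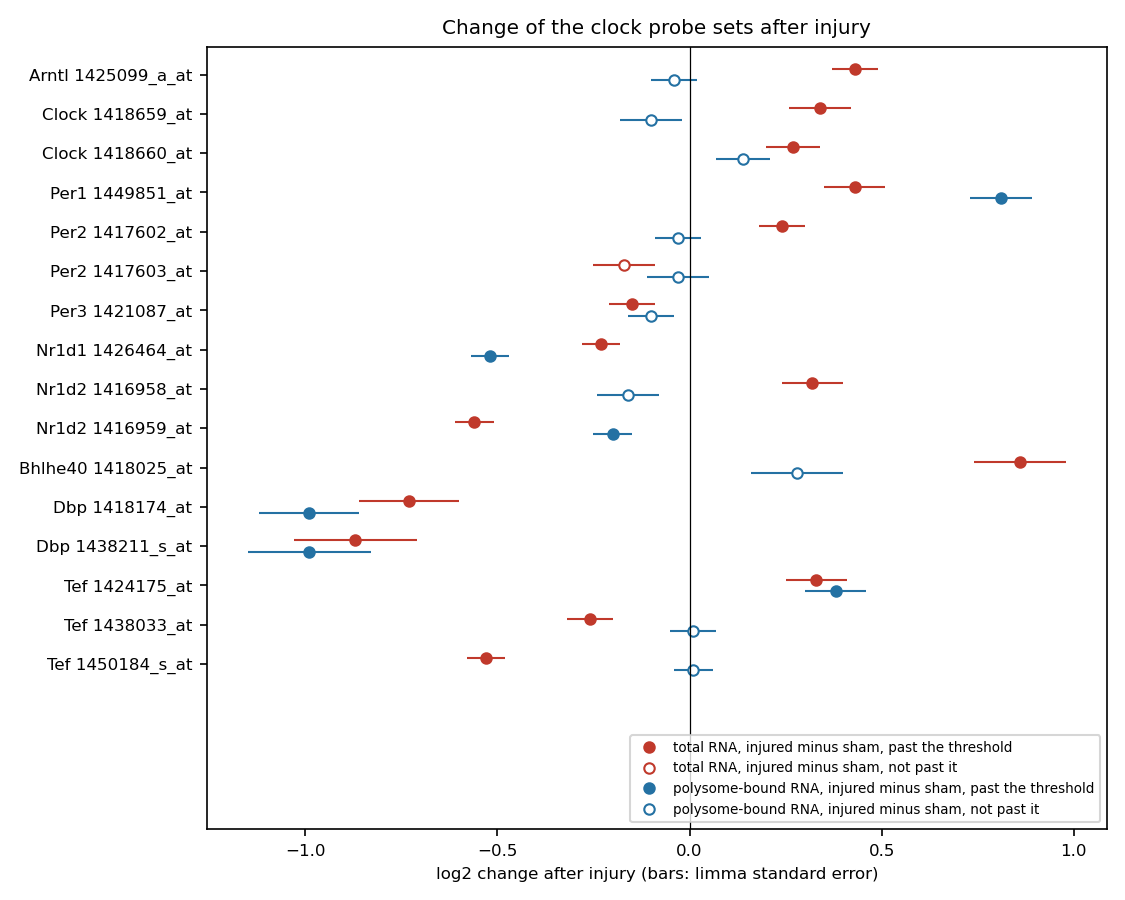
Log2 change after injury (horizontal axis, injured minus sham) of the 16 tested clock probe sets, with total RNA above and polysome-bound RNA below on each line, bars of 1 limma standard error and filled points where the adjusted p passed 0.05. Per1 lies farthest to the right on polysomes (0.81) and both Dbp probe sets farthest to the left (-0.99), whereas most other polysome points are open and near 0.

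Changes in total RNA depended on level over all probe sets. In 10 equal groups of probe sets by mean level, the median change in total RNA was -0.15 in the dimmest group and 0.27 in the brightest, against -0.01 and -0.05 on polysomes. The bright rising and dim falling probe sets of Tef and Nr1d2 lay near or beyond these medians. Tef 1424175_at differed from the median of its own level group by 0.06 in total RNA and by 0.47 on polysomes. Nr1d2 1416958_at differed from its group by 0.05 in total RNA, and Clock 1418660_at by 0.09. The falls of Tef 1450184_s_at and Nr1d2 1416959_at went past their groups by -0.39 and -0.42. Farther from their level groups in total RNA were Bhlhe40 (0.59), Arntl (0.35), Per2 1417602_at (0.33), Per1 (0.30) and Nr1d1 (-0.31), and farthest Dbp (-1.14 for 1438211_s_at and -0.86 for 1418174_at). On polysomes Per1 stood 0.90 above its group, Bhlhe40 0.37 above, Nr1d1 at -0.44 and both Dbp probe sets at -0.90.

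**Figure D3:**
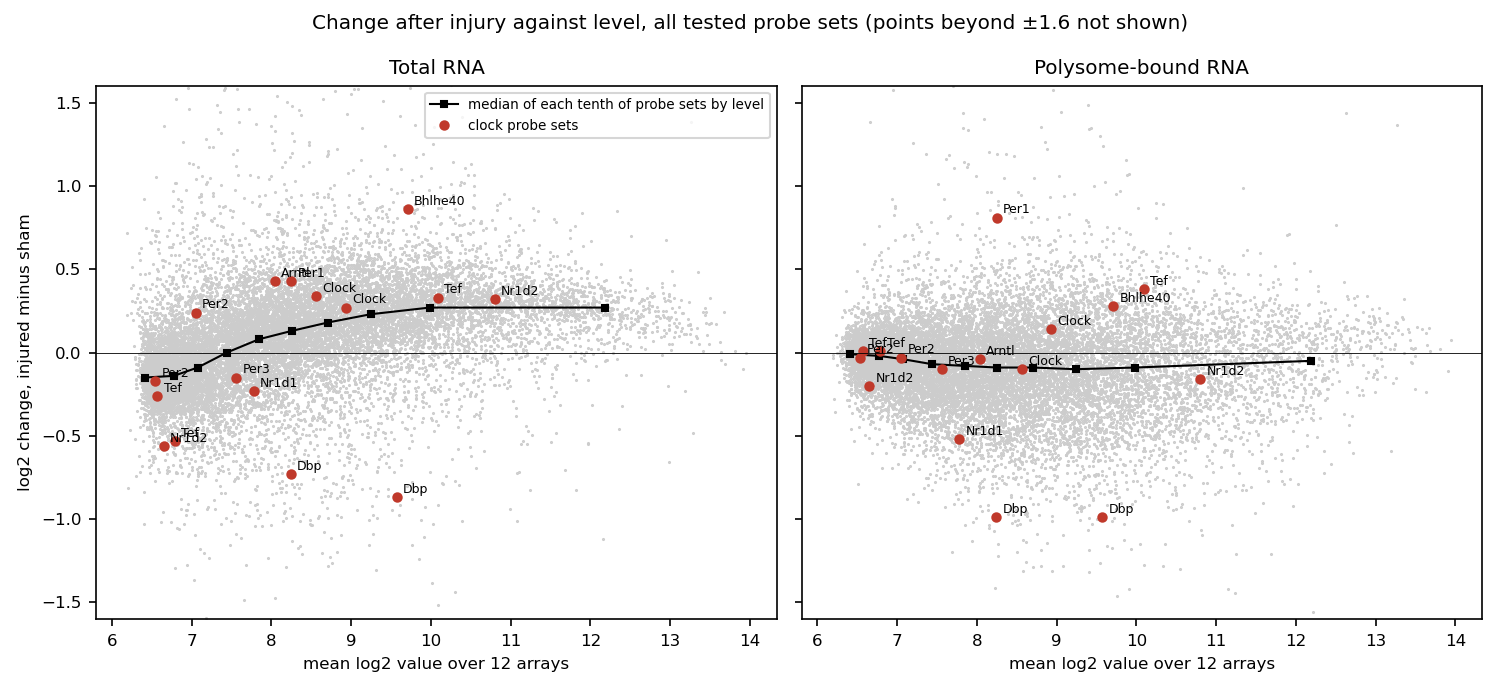
Log2 change after injury (vertical axis, injured minus sham) against mean log2 value over 12 arrays (horizontal axis) for total RNA (left) and polysome-bound RNA (right), with all tested probe sets in grey, the clock probe sets in red and the median of each of 10 level groups in black. In total RNA the black line climbs with level, and the bright probe sets of Tef, Nr1d2 and Clock lie near it, while Dbp lies far below it and the dim probe sets Tef 1450184_s_at and Nr1d2 1416959_at lie -0.39 and -0.42 from it; on polysomes the line is nearly flat and Per1 and Dbp are the clock points farthest from it.

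The arrays of injured and sham cord also differed in their technical controls. The 18 hybridisation control probe sets averaged 10.45 ± 0.08 on injured and 10.99 ± 0.15 on sham total arrays, and 10.37 ± 0.05 on injured and 10.81 ± 0.04 on sham polysome arrays (SD, n = 3 each). Gapdh probe sets at the 3′ end exceeded those at the 5′ end, a sign of RNA length, by 1.40 ± 0.22 in injured and 0.23 ± 0.05 in sham total RNA, and by 2.83 ± 0.27 in injured and 0.87 ± 0.03 in sham polysome RNA. For Actb this excess was 1.80 ± 0.07 in injured and 1.46 ± 0.07 in sham total RNA, and 3.26 ± 0.48 in injured and 1.68 ± 0.10 in sham polysome RNA. The interquartile range of an array was 2.45 ± 0.03 in injured and 2.11 ± 0.03 in sham total RNA. The highest absent control averaged 6.85 in injured and 7.04 in sham total RNA, a difference of -0.19, beside falls in total RNA of 0.26 for Tef 1438033_at, 0.53 for Tef 1450184_s_at and 0.56 for Nr1d2 1416959_at. In each of these 8 comparisons the arrays did not overlap, and the exact two-sided permutation p was 0.1, the smallest that 3 arrays against 3 allow. Their part in the changes of the clock genes was not tested.

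The change on polysomes differed from the change in total RNA for 10 of the 16 clock probe sets, 4 of them more positive and 6 more negative on polysomes. Of the 12 probe sets above every absent control on all arrays, 1 (Per1) was more positive and 6 more negative, and by the brightest probe set of each gene 1 was more positive and 5 more negative; the other 3 positive calls belong to dim probe sets of Tef and Nr1d2 whose polysome values lie among the absent controls. Over all probe sets 50.6% were called (13.6% more positive, 37% more negative), with a median of -0.14. Quantile normalization of the 12 arrays moves that median to 0.00, so values less the median are added. Arntl differed by -0.47 (SE 0.09; adjusted p = 0.001), or -0.33 less the median, its rise being found in total RNA and not on polysomes. Per1 differed by 0.38, or 0.52 less the median. Bhlhe40 differed by -0.59 (SE 0.16; adjusted p = 0.0096), Nr1d2 1416958_at by -0.48 and Clock 1418659_at by -0.44. The median also depended on level, at 0.14 in the dimmest of the 10 level groups and -0.32 in the brightest. It was -0.36 in the group of Bhlhe40, -0.32 in that of Nr1d2 1416958_at and -0.28 in that of Clock 1418659_at. In the groups of Arntl and Per1 it was -0.18 and -0.23. Tef 1424175_at, in the same group as Bhlhe40, differed by 0.05. Under quantile normalization 6 of the 16 were called, 4 of them more positive and 2 more negative. Arntl and Per1 kept their calls there, whereas Bhlhe40 (-0.32), Nr1d2 1416958_at (-0.13), Clock 1418659_at (-0.16) and Nr1d1 (-0.06) did not, and Tef 1424175_at was called at 0.40 (adjusted p = 0.0015). For Dbp the difference was -0.12 for 1438211_s_at (95% interval -0.60 to 0.35) and -0.27 for 1418174_at (95% interval -0.67 to 0.14), with neither called. Over all probe sets, the more positive calls made up 26.8% of the interaction calls as deposited, 47.8% after quantile normalization and 42% after centring. In total RNA the higher calls made up 62.5% as deposited and 50.9% after quantile normalization, and on polysomes 30.4% as deposited, 49.2% after quantile normalization and 52% after centring.

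Polysome-bound and total RNA were also compared within injured cord and within sham cord. As deposited, 13 of 16 clock probe sets were lower on polysomes than in total RNA in injured cord and 1 was higher, and 13 were lower and 0 higher in sham cord. Of the 12 above every absent control on all arrays compared, 9 were lower in each cord, with 1 higher in injured and 0 in sham cord. Over all probe sets 86.6% were called in injured cord (12.9% higher, 73.7% lower) and 81.2% in sham cord (18.6% higher, 62.6% lower). The median of all probe sets was -0.44 in injured and -0.35 in sham cord, and centring the arrays moves it to 0.16 in both, so the values below are less the median as deposited. Centring turned the share of higher calls to 65.9% in injured cord, against 14.9% as deposited, and to 68.4% in sham cord, against 22.9% as deposited. Clock 1418659_at was among the clock probe sets least represented on polysomes, at -0.80 in injured and -0.45 in sham cord. Per2 1417602_at stood at -0.63 in injured and -0.44 in sham cord, and Per3 1421087_at at -0.36 in injured and -0.51 in sham cord. The polysome values of Per2 1417602_at lay only 0.06 to 0.19 above the highest absent control of their array, so the size of its difference could hardly be measured. Nr1d1 stood at -0.54 in injured and -0.34 in sham cord. On the other side, Dbp 1438211_s_at stood at 0.54 in injured and 0.57 in sham cord, Per1 at 0.63 in injured and 0.16 in sham cord, and Tef 1424175_at at 0.32 in injured and 0.18 in sham cord. Arntl stood at -0.42 in injured and -0.04 in sham cord, and Bhlhe40 at -0.20 in injured and 0.30 in sham cord. These differences depended on level too. In sham cord the median as deposited was -0.58 in the dimmest of the 10 level groups and 0.25 in the brightest. It was 0.11 in the group that holds Dbp 1438211_s_at, Bhlhe40 and Tef 1424175_at, which as deposited stood at 0.22, -0.05 and -0.18. Bhlhe40 and Tef 1424175_at thus lay below the median of probe sets of like level in sham cord.

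As deposited, Per1 was the only clock probe set called in opposite directions, 0.19 higher on polysomes in injured cord (adjusted p = 0.031) and -0.20 in sham cord (adjusted p = 0.027). The call in injured cord was lost at 0.15 to 0.16 without injured total replicate 1 or 2 or injured polysome replicate 1 or 2, and the value was 0.06 without both of these polysome arrays. It was also lost with array weights, at 0.15 (adjusted p = 0.11), and with the spread of the compared groups alone, at 0.19 (adjusted p = 0.079). The call in sham cord was lost at -0.15 to -0.18 without sham total replicate 1 or 2 or sham polysome replicate 2, and the sign turned to 0.20 after quantile normalization and 0.31 after centring. In the equal-numbered samples the Per1 difference was 0.31, 0.32 and -0.07 in injured cord, against -0.23, -0.32 and -0.05 in sham cord. Equal numbers were taken to pair the sham fractions, since deviations of equal-numbered arrays correlated at 0.14 to 0.19. The labels do not state this pairing. Sham polysome replicate 2 and injured polysome replicate 3, from different mice, correlated at 0.45. With the sham arrays alone and the replicate number as a block, the Dbp probe sets were both called and in opposite directions. Probe set 1418174_at stood at -0.26 (adjusted p = 0.00026) and 1438211_s_at at 0.22 (adjusted p = 0.001). These calls with the block rest on the assumed pairing. In the 12-array fit, with or without a block, neither was called. Dbp 1418174_at was also called without a block from the spread of the compared groups alone (-0.26; adjusted p = 0.036), with array weights (adjusted p = 0.034), after quantile normalization within fractions (-0.40; adjusted p = 0.0071) and without sham polysome replicate 2 (-0.40; adjusted p = 0.013), and 1438211_s_at after centring (0.73). Tef 1424175_at, at -0.18 in sham cord, had an adjusted p of 0.05. Over the 12 arrays it was not called with the replicate block (0.055 as a fixed term, 0.051 as a random one) or without any of 9 single arrays, whereas with the sham arrays alone and the block it was called (adjusted p = 0.0046).

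**Figure D4:**
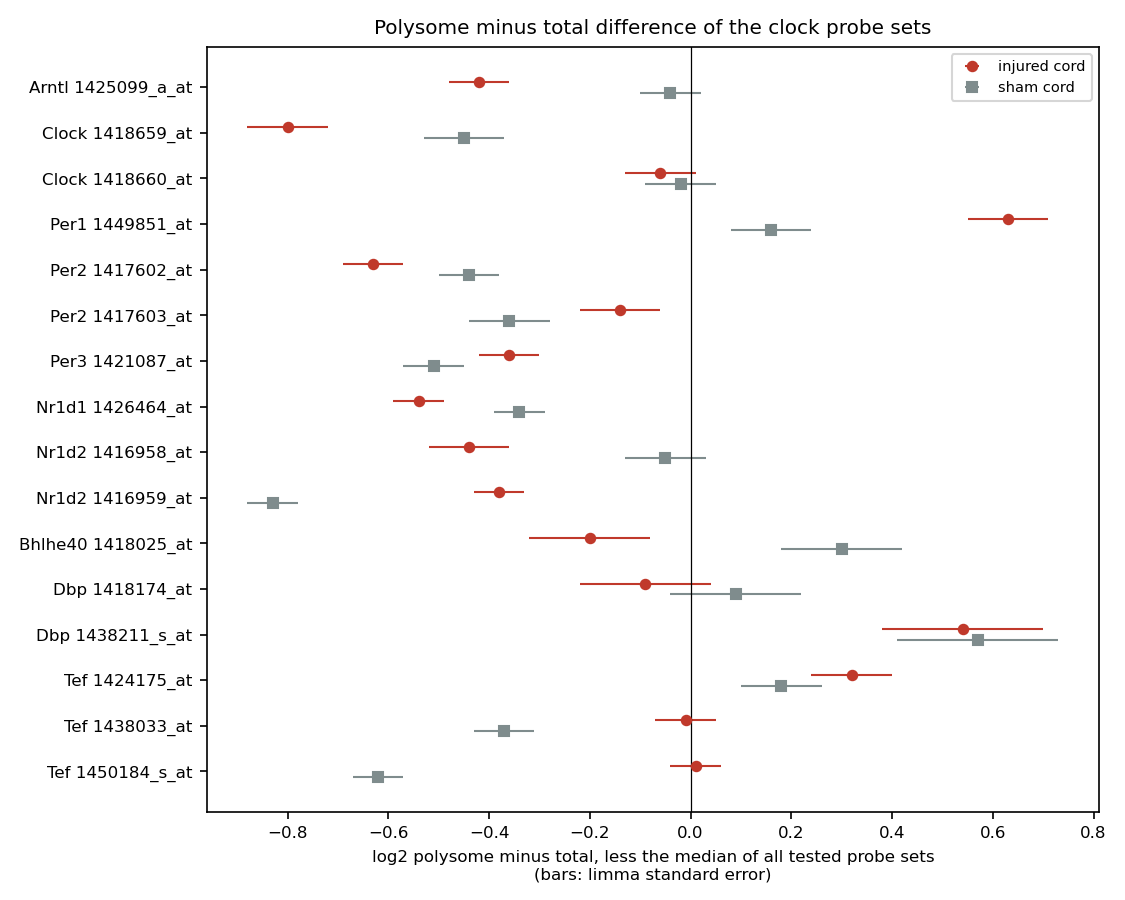
Log2 polysome minus total difference, less the median of all tested probe sets (horizontal axis), of the 16 tested clock probe sets in injured cord (red circles) and sham cord (grey squares), with bars of 1 limma standard error. Per1 and Dbp 1438211_s_at lie right of 0 in both, Per1 at 0.63 in injured and 0.16 in sham cord, whereas Clock 1418659_at, Per2 1417602_at, Per3 and Nr1d1 lie left of 0 in both. The polysome values of Per2 1417602_at lie close to the absent controls.

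Other genes of the loop were taken from a list of 12, of which 10 were tested. In total RNA 6 of the 10 rose and 3 fell, beside 37.3% and 22.4% of all probe sets, with a median of 0.31, against 0.08 over all probe sets. On polysomes 3 rose and 0 fell, beside 11.8% and 27% of all probe sets, with a median of 0.11, against -0.05. These shares and medians of all probe sets hold for the lists that follow too. They are not a like unit, since each list gene is counted by its brightest tested probe set. In total RNA the share of probe sets that rose was 7.48% in the dimmest of the 10 level groups and 68.9% in the brightest. Nfil3, a repressor that competes with DBP and TEF for D-boxes, rose by 0.93 in total RNA (SE 0.09; adjusted p = 3e-06) and by 0.46 on polysomes (adjusted p = 0.0012). Timeless, which in mammals also acts at replication forks, rose by 0.76 in total RNA (SE 0.07; adjusted p = 1.3e-06) and by 0.40 on polysomes (adjusted p = 0.00033). Rora, which activates Arntl through the elements that REV-ERB proteins block, rose by 0.46 in total RNA (adjusted p = 3e-05) and by 0.38 on polysomes (adjusted p = 0.00024). Hlf, the third relative of Dbp and Tef, fell by 0.39 on the log2 scale in total RNA (adjusted p = 0.00022) and differed by 0.01 on polysomes. Cry1 and Cry2, partners of PER proteins named here after their values were seen, rose by 0.44 and 0.19 in total RNA (adjusted p = 6e-04 and 0.041), and on polysomes differed by 0.16 and 0.05 with no call. In the level groups of Cry1 and Cry2 the median change in total RNA was 0.08 and 0.18, so the rise of Cry2 was near that of its group.

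Of 15 listed kinases, a phosphatase and ubiquitin ligase parts that act on PER, CRY or BMAL1, 11 were tested. In total RNA 6 rose and 2 fell (median 0.20), beside 37.3% and 22.4% of all probe sets, and on polysomes 3 rose and 2 fell (median -0.04), beside 11.8% and 27%. Csnk1d, a casein kinase that phosphorylates PER proteins, rose by 0.47 in total RNA (adjusted p = 4e-05) and by 0.52 on polysomes (adjusted p = 3.4e-05). Its relative Csnk1e, with the same substrates, fell by 0.62 on the log2 scale in total RNA (adjusted p = 0.0011) and differed by -0.19 on polysomes. Csnk1a1, another casein kinase, and Fbxw11, part of a ubiquitin ligase that targets PER proteins, rose by 0.39 and 0.40 in total RNA. After quantile normalization of the 12 arrays, 1 of the 11 rose and 4 fell in total RNA. Of 10 listed output genes that cycle in many tissues, 8 were tested, with 6 rising and 1 falling in total RNA (median 0.80) and 5 rising and 1 falling on polysomes (median 0.42). Again 37.3% of all probe sets rose and 22.4% fell in total RNA, and 11.8% rose and 27% fell on polysomes. Cdkn1a, a cell cycle inhibitor, rose by 1.83 in total RNA and 2.01 on polysomes, and Tsc22d3, a glucocorticoid-induced leucine zipper gene, by 1.13 in total RNA and 0.58 on polysomes. Pdk4, a kinase that curbs pyruvate oxidation, rose by 1.43 in total RNA and 1.19 on polysomes, and Tspan4 by 1.19 in total RNA and 0.87 on polysomes. Nampt, the enzyme of NAD salvage, rose by 0.46 in total RNA and differed by -0.07 on polysomes.

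Because Per1 is also glucocorticoid-induced, 12 other such genes were read beside it, with Tsc22d3 and Cdkn1a also among the outputs. All 12 rose in total RNA (median 1.44) and 11 of 12 on polysomes (median 1.15), with Ddit4, named after its value was seen, at 0.04 and not called there. Fkbp5, a chaperone that curbs the glucocorticoid receptor, rose by 2.15 in total RNA and 1.30 on polysomes. Mt2, a metallothionein that binds zinc and copper, rose by 1.69 in total RNA and 1.44 on polysomes. Plin4, a lipid droplet protein, rose by 2.69 in total RNA and 2.51 on polysomes, and Sult1a1, a sulfotransferase, by 1.72 in total RNA and 2.01 on polysomes. Markers of blood-borne cells moved as well. Of 7 tested neutrophil and monocyte markers 5 rose in total RNA, and on polysomes 4 rose and 1 fell, beside 37.3% of all probe sets rising in total RNA, and 11.8% rising and 27% falling on polysomes. Their summed log2 level ran over 12.26 to 12.97 in injured and 11.32 to 11.66 in sham total RNA, and over 10.88 to 11.80 in injured and 10.64 to 10.85 in sham polysome RNA. Cxcr2, counted among the polysome rises at 0.24, was above every absent control on no polysome array, so that rise is only a reading. Of 5 microglia markers 3 fell in total RNA and 4 on polysomes, beside 22.4% and 27% of all probe sets. The part of these genes and cells in the changes of the clock genes was not tested.

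Over the 12 median-centred arrays, and among 10196 other genes, the patterns most like Per1 were those of Dync1h1 (Pearson r = 0.988), Wdr33 and Tro (both 0.983). Those most like Nr1d1 were Lims2 (0.982), Pde8a (0.973) and Cdh20 (0.965). Those most like Dbp were Hcn2 (0.935), Rab7b (0.933) and Tst (0.932), and those most like Arntl were Luc7l2 (0.959), Gria2 and Slc1a3 (both 0.952). Among the clock genes themselves Per1 and Nr1d1 ran opposite (r = -0.98), as did Nr1d1 and Tef (r = -0.95), whereas Per1 and Tef ran together (r = 0.92). Arntl and Dbp ran opposite (r = -0.73). These correlations describe 12 arrays that form 4 groups and share the differences of fraction and operation, and no test was made of them.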

How the data were processed

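Spinal cord RNA was measured on 12 Affymetrix arrays, 3 in each of 4 groups read from the sample titles. The values are log2 expression values as deposited by the authors, 1 per probe set and array, a scale read from their range; background correction and normalization are not given in the sources used here. Of 22690 probe sets, 20393 named 1 gene in the platform annotation, 691 several and 1606 none; 20372 symbols were in the RefSeq table (GRCm38.p6). The 16566 probe sets brighter than 25% of the array on 3 or more arrays were tested with limma 3.58.1 (statmod 1.5.0, R 4.3.3): 4 group means, empirical Bayes moderation with an intensity trend (median 14.1 degrees of freedom), two-sided p adjusted by the Benjamini-Hochberg method. There were 5 comparisons: injured minus sham in each fraction, the difference of these changes, and polysome minus total RNA in injured and in sham cord. A value was called above background when it exceeded the highest of 27 absent-control probe sets on its array. Arrays have no read depth: the number of arrays limits the precision.

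The clock genes, the gene lists and the tests were chosen with earlier results of these data known. Every probe set of the 10 genes is named, and of each other list up to 4 genes among those with the lowest adjusted p in a comparison (total RNA, polysomes or interaction); the 3 most similar genes are given for Per1, Nr1d1, Dbp and Arntl. The labels say biological replicate, not which animal. Deviations of equal-numbered sham total and sham polysome arrays correlated at 0.19, 0.17 and 0.14, so equal numbers were taken to pair these, whereas injured ones correlated at -0.09, 0.06 and 0.04. The pairing is an assumption, since sham polysome replicate 2 and injured polysome replicate 3, from different mice, correlated at 0.45. The consensus correlation of the random replicate block, operation and number together, was -0.01. Arrays of a group correlated at 0.992 to 0.998 across probe sets. Alternatives were other filters and gene summaries, quantile normalization, centring, array weights, the spread of the compared groups alone, replicate blocks and leaving out arrays. The procedure was tested on simulated data. Start-site windows were searched with Python 3.11.15.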

Additional observations from a re-analysis of the deposited data

Results flagged for a closer look

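For 10 of the 16 tested clock probe sets the change after injury on polysomes differed from that in total RNA, by limma's test of the interaction; 50.6% of all probe sets did so. Arntl differed by -0.47 (SE 0.09; adjusted p = 0.001), with a rise in total RNA and no call on polysomes. Clock 1418659_at differed by -0.44 (adjusted p = 0.0057). Per1 differed by 0.38 (adjusted p = 0.0091), with rises in both fractions. Per2 1417602_at differed by -0.28 (adjusted p = 0.022), a call lost without sham total replicate 2, injured total replicate 1 or injured polysome replicate 3 (-0.21 to -0.24) and after centring (-0.19); its polysome values lay 0.06 to 0.19 above the highest absent control. Nr1d1 differed by -0.29 (adjusted p = 0.0054), with falls in both fractions. The bright Nr1d2 probe set 1416958_at differed by -0.48 (adjusted p = 0.0034) whereas the dim one, 1416959_at, gave 0.36 (adjusted p = 0.0016), a reading and not a measured difference, since it was above every absent control on no polysome array. Bhlhe40 differed by -0.59 (adjusted p = 0.0096). After quantile normalization of the 12 arrays the calls of Clock 1418659_at (-0.16), Nr1d1 (-0.06), Nr1d2 1416958_at (-0.13) and Bhlhe40 (-0.32) were lost. Within fractions they were lost too, at -0.14, -0.12, -0.13 and -0.24. The dim Tef probe sets gave 0.27 for 1438033_at (adjusted p = 0.023) and 0.54 for 1450184_s_at (adjusted p = 8.7e-05), also only readings, since on polysomes 1438033_at was above every absent control on no array and 1450184_s_at on 1 of 3 arrays in each group. The call of Tef 1438033_at was lost without injured total replicate 1 or 2 or sham polysome replicate 2 (0.23 to 0.25) and after quantile normalization of the 12 arrays (0.14) or within fractions (0.15).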

How the results depend on the processing

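No change after injury and no interaction of a clock probe set reversed under any alternative run. In total RNA 370 of 389 values stayed on the same side of the threshold, and on polysomes 374 of 389. For the interaction 353 of 373 did so. These counts pool the fits that leave out arrays with the changes of scaling. In total RNA 8 clock probe sets were higher and 7 lower as deposited. Quantile normalization of the 12 arrays gave 5 higher and 6 lower, and within fractions 4 higher and 6 lower. On polysomes 2 were higher and 4 lower as deposited, and either quantile normalization gave 4 higher and 4 lower. Of 10 interaction calls as reported, the filter at the array median gave 6 of 11 probe sets, the brightest probe set of a gene and the mean over its probe sets each gave 6 of 10 genes, and both quantile normalizations gave 6 of 16 probe sets. Fewer units entered the first 3 of these. The mean over probe sets gave 8 of 10 genes in total RNA, against 15 of 16 probe sets. For polysome minus total RNA in injured cord (14 as reported) the same filter gave 9, the brightest probe set 8 and the mean 9, and in sham cord (13 as reported) 7, 8 and 8. Leaving out an array gave 14 to 16 calls in total RNA, 6 to 7 on polysomes, 8 to 10 for the interaction, 13 to 14 in injured and 11 to 13 in sham cord for polysome minus total RNA. A replicate block was run with the number as a fixed term, or with operation and number together as a random term. The fixed term joins injured and sham arrays of equal number, which come from different mice. With either block 15, 6 and 10 calls stood in total RNA, on polysomes and for the interaction. Besides Tef 1424175_at and Dbp in sham cord, neither block, nor that of the sham arrays alone, changed a call. The sham arrays alone with the number as a block were added after seeing the data, as was leaving out 2 injured polysome arrays. The polysome minus total differences reversed with the scaling of the arrays. After centring they were, in injured cord, 0.11 for Clock 1418660_at, 0.08 for Dbp 1418174_at, 0.02 for Per2 1417603_at, and 0.48, 0.15 and 0.17 for Tef 1424175_at, 1438033_at and 1450184_s_at. In sham cord they were 0.12 for Arntl, 0.46 for Bhlhe40, 0.14 for Clock 1418660_at, 0.11 for Nr1d2 1416958_at, 0.31 for Per1 and 0.33 for Tef 1424175_at. After quantile normalization of 12 arrays they were, in injured cord, 0.05 for Dbp 1418174_at and 0.14, 0.02 and 0.07 for Tef 1424175_at, 1438033_at and 1450184_s_at, and in sham cord 0.00 for Arntl and 0.20 for Per1. The cause was not tested. Signal near the absent controls limits Per2, the dim Per3, Tef and Nr1d2 probe sets, and Per2 1417602_at on polysomes in particular.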
